A study of Mus musculus with 5 samples.

Results

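The transcripts of 5 receptors for growth factors of blood cell lineages were followed: Kit, Flt3, Csf1r, Csf3r and Epor, the receptors for stem cell factor, Flt3 ligand, M-CSF, G-CSF and erythropoietin. They were taken as every probe set whose platform annotation named exactly 1 gene and that gene was one of these, which gave 8 of 45037 probe sets. Csf1r had 3, Kit had 2, and Flt3, Csf3r and Epor had 1 each. Expression had been measured on 5 Affymetrix arrays in progenitor cells sorted from the marrow of wild type mice (C57BL/6), 3 arrays of common dendritic cell progenitors (CDP) and 2 of common myeloid progenitors (CMP). Per the series' design text, both populations lacked lineage markers, Sca-1 and CD16/32 and carried CD34 and Flk2, CDP were taken at intermediate c-kit and with CD115, CMP at high c-kit, without CD115 and without CD11c. No treatment was given, no age is stated, and nothing in the labels says whether each array had its own animals or pool, so the p-values below rest on a spread among samples that may be technical alone. Flk2, c-kit and CD115 are the proteins of Flt3, Kit and Csf1r, so the cells had been chosen on the products of 3 of the 5 genes, and transcript differences in these genes are not independent of the sort.

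Blood progenitors depend on a small set of growth factor receptors. Kit, Flt3 and Csf1r are receptor tyrosine kinases of one family, with immunoglobulin-like domains outside the cell and a split kinase domain inside, and they signal through PI3 kinase, Ras and STAT proteins. Kit supports stem cells, early progenitors and mast cells, Flt3 supports lymphoid and dendritic cell development, and Csf1r supports monocytes and macrophages. Csf3r and Epor are cytokine receptors with no kinase of their own that signal through JAK kinases and STAT proteins. Csf3r drives neutrophil production, and Epor drives the survival and maturation of red cell precursors.

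RefSeq promoter windows were at hand for 4 of the 5 genes, Csf1r being the exception, and the 250 bases before the annotated start are shown for 3 of them. Kit is shown because its transcript was called lower in CDP, Csf3r because it is the receptor of the neutrophil lineage and ran lower in CDP without being called, and Epor because it stayed below detection on every array. Each is written 5′ to 3′ on the strand of the gene, from build GRCm38.p6, with matches to 6 short motifs in capitals. These were GATAA (GATA factors), GAGGAA (PU.1), TGTGGT (Runx factors), GCAAT (part of a C/EBP site), CAGCTG (an E-box, as bound by Tal1) and GGGCGG (Sp1), searched on both strands, with overlapping matches allowed. The Kit window lies at chr5:75574737-75574986 on the plus strand, the Csf3r window at chr4:126024409-126024658 on the plus strand, and the Epor window at chr9:21963577-21963826 on the minus strand.
Kit: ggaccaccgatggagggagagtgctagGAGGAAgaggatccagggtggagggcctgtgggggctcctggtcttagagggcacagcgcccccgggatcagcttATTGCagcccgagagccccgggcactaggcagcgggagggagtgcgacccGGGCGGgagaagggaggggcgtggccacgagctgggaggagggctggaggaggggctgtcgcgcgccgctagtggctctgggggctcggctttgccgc
Csf3r: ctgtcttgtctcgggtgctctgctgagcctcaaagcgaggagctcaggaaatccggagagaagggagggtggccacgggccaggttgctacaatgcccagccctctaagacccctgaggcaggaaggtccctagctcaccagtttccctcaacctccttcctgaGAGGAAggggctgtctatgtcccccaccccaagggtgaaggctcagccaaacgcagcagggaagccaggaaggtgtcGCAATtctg
Epor: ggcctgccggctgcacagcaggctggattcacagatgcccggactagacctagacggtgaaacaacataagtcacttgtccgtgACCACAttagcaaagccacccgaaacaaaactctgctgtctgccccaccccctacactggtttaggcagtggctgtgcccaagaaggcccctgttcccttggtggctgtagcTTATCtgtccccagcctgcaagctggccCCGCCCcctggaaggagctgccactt

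The Kit window held 1 match to GAGGAA, 1 to GCAAT on the opposite strand and 1 to GGGCGG. A second annotated Kit start, 4 bases further on, had the same 3 matches. The Csf3r window held GAGGAA 86 to 81 bases before the start and GCAAT 9 to 5 bases before it, and no match to the other motifs. The Epor window held GATAA on the opposite strand (TTATC) 54 to 50 bases before the start, GGGCGG on the opposite strand (CCGCCC) 26 to 21 bases before it, and TGTGGT, again on that strand, 166 to 161 bases before it. The Flt3 window held none of the 6. Over all 32851 windows of the same length, GATAA was found in 22.6%, GAGGAA in 23.3%, TGTGGT in 14%, GCAAT in 23.1%, CAGCTG in 13% and GGGCGG in 32.7%. These matches describe the letters of the windows and no binding was measured.

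Values are log2 expression, and a probe set was tested when at least 2 arrays reached log2 5, which also served as the detection level. The share of probe sets at that level was alike on all arrays, 34.0% to 35.8%. The arrays differed in the balance of the beta-actin controls: the 5′ control probe set lay below log2 8 on CDP 1 and CMP 1 (6.54 and 6.71), and at 10.52 to 12.97 on the other 3. CDP 1 and CMP 1 are called the arrays low in 5′ actin signal below, and differences are also given within them and within the other 3. The Gapdh controls did not give the same split. Their 3′ signal exceeded the 5′ signal most on CDP 3 (by 6.6 log2), then on CMP 1 (4.71), CDP 1 (4.64), CDP 2 (3.88) and CMP 2 (3.22). The split thus rests on actin alone. The array CDP 2 stood apart in carrying transcripts of mature neutrophils and red cells, given beside Csf3r and Epor. In such bulk samples, fewer cells of a type and less RNA per cell cannot be told apart. Of 16552 probe sets tested with limma, 1.73% were called between CDP and CMP at an adjusted p under 0.05, 1.31% higher and 0.423% lower in CDP, and 32.2% had groups that did not overlap. The median difference over all of them was 0.12, and 0.0039 after quantile normalization, so differences of this size carry no direction. All of the receptor differences named below kept their sign under both scalings.

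Of the 8 receptor probe sets, 6 were tested, and of these 1 was called lower (Kit) and 1 higher (Csf1r) in CDP. The other 2, a second probe set of Kit and the single one of Epor, reached log2 5 on 1 array and on none.

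**Figure D1:**
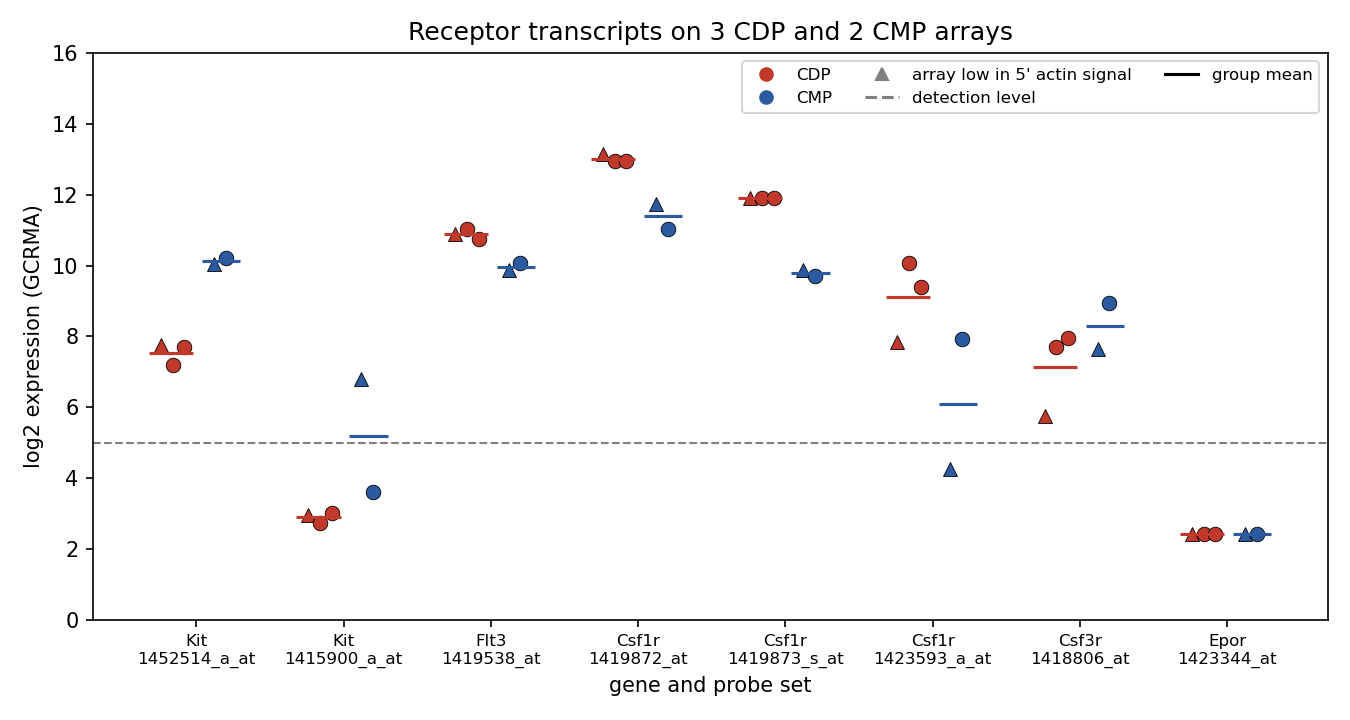
Log2 expression of the 8 receptor probe sets (horizontal axis) on each array, with CDP in red and CMP in blue, triangles for the arrays low in 5′ actin signal, short lines for group means and a dashed line at the detection level of log2 5. The Kit probe set 1452514_a_at separates the groups downwards in CDP, Flt3 and 2 Csf1r probe sets separate them upwards, Csf3r overlaps, and Epor sits at 2.41 on every array.

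Kit, the stem cell factor receptor, was lower in CDP. Its probe set 1452514_a_at read 7.75, 7.18 and 7.70 on CDP 1, 2 and 3, and 10.04 and 10.20 on CMP 1 and 2. The groups did not overlap, and the nearest arrays of the 2 groups lay 2.29 apart, against a range of 0.56 among CDP and 0.16 among CMP. The means were 7.54 ± 0.31 (SD, n = 3) and 10.12 ± 0.11 (SD, n = 2), a difference of -2.57 ± 0.34 (SE, limma adjusted p = 0.0318), which is 5.96-fold lower in CDP with a 95% interval of -3.39 to -1.76 on the log2 scale. Of 8449 genes tested at 1 probe set each, 2.07% had a larger difference in either direction. Within the arrays low in 5′ actin signal the difference was -2.29, and within the others -2.75. The transcript thus stayed detected on all CDP arrays, the population sorted at intermediate c-kit. The size moved little when single arrays were left out (-2.68 to -2.40), but each of these 5 fits ended the call, with adjusted p from 0.0705 to 0.189 and 2 residual degrees of freedom in place of 3.

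The second Kit probe set, 1415900_a_at, read 2.97, 2.72 and 3.02 on the CDP arrays, and 6.80 and 3.60 on CMP 1 and CMP 2. It was above detection on CMP 1 alone, at least 1.80 above CMP 2, and it was not tested. Both Kit probe sets carry a suffix (_a_at) that marks a match to several transcripts of a gene. Mast cells, which keep Kit into maturity, were checked by their markers: of 6 marker genes of mast cells and basophils with a probe set, 3 were at or above detection on both CMP arrays and 1 or 2 on the CDP arrays. Their summed signal ran from 9.75 to 10.88 (log2) in CMP and from 6.60 to 6.88 in CDP. The mast cell protease Cpa3 read 8.76 and 6.25 in CMP and 2.26, the lowest value of the table, on all CDP arrays, and the histidine decarboxylase Hdc read 10.29 and 8.93 in CMP and 4.55 to 5.42 in CDP. Both were called lower in CDP (limma adjusted p = 0.0346 and 0.0217), 2 of 3 tested on this list, beside 2.14% of all genes tested. They were lower by at least 5.68-fold and at least 22.1-fold with values below detection set to log2 5. With CMP 1 left out the bounds were 2.38-fold and 13.8-fold, and with CMP 2 left out 13.5-fold and 35.4-fold. A second Hdc probe set stayed below detection on every array (at most 4.6) and was not tested. Fcer1a and Cma1, defining genes of mast cells, were at 2.26 on all 5 arrays. Among 10 genes of stem cells and multipotent progenitors, a list that itself holds Kit, 8 were tested. Kit, Gata2, Angpt1 and Myct1 were called lower in CDP and none higher, beside 2.14% called of all genes tested. The further probe sets of Angpt1 and Myct1 were not tested. Of these only 1 of Myct1 reached detection, on CMP 1 (6.64). Without Kit the other 9 summed to 12.40 and 13.23 (log2) in CMP and to 10.71 to 11.32 in CDP. Cd34 was the brightest of these 9 on every array, so it weighs most in the sums. Both populations had been sorted to carry its protein. Its means were 10.71 in CDP and 12.04 in CMP, and it did not pass (-1.33 ± 0.56 SE, limma adjusted p = 0.327). The part of either cell type in the Kit difference was not tested.

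Csf1r, the M-CSF receptor, was called higher in CDP, the population sorted for its protein, on 1 of its 3 probe sets. On 2 of the 3 it was also well above detection in CMP, which had been sorted against that protein. On 1419873_s_at it read 11.92, 11.91 and 11.92 in CDP, and 9.87 and 9.71 in CMP. The CDP arrays lay within 0.01 of one another and 2.04 or more above CMP, a difference of 2.13 ± 0.29 (SE, limma adjusted p = 0.0355), or 4.37-fold, with a 95% interval of 1.41 to 2.84. It was 2.06 within the arrays low in 5′ actin signal and 2.20 within the others, and each single array left out ended the call (adjusted p from 0.0776 to 0.217) at differences of 2.05 to 2.20. Leaving out both arrays low in 5′ actin signal ended it too (2.20, adjusted p = 0.0786). The suffix _s_at marks a probe set that may match transcripts of more than 1 gene.

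On the brightest probe set, 1419872_at, Csf1r read 13.16, 12.94 and 12.95 in CDP, and 11.75 and 11.03 in CMP. The groups did not overlap, and the CMP arrays differed by 0.72, more than the 0.22 among CDP. The difference of 1.63 ± 0.35 (SE, 3.09-fold, 95% interval 0.77 to 2.48) missed the threshold (limma adjusted p = 0.0966). It passed with the arrays low in 5′ actin signal as a block (1.70, adjusted p = 0.018) and as the mean of the 3 probe sets (2.25, adjusted p = 0.0393). That block fit called 1438 probe sets in place of 287, with 2 residual degrees of freedom in place of 3. Within the arrays low in 5′ actin signal the difference was 1.41 and within the others 1.91.

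The remaining probe set, 1423593_a_at, spread widely: 7.85, 10.06 and 9.40 in CDP, and 4.26 and 7.93 in CMP. The lowest CDP array lay 0.08 below the higher CMP array, so the groups overlapped. In each group the array low in 5′ actin signal was the lowest, 1.88 below the mean of the other 2 in CDP and below detection in CMP, at 4.26 against 7.93. The difference of 3.01 ± 1.16 (SE, 95% interval 0.19 to 5.83) did not pass (limma adjusted p = 0.284), and with values below detection set to log2 5 it was 2.64 (adjusted p = 0.302). It was 1.18 without CMP 1 and at least 4.10 without CMP 2, where only the undetected CMP 1 was left. With the arrays low in 5′ actin signal as a block it was 2.57 (adjusted p = 0.0254), and with the replicate number as a block 2.86 (adjusted p = 0.0341). These fits left 2 and 1 residual degrees of freedom in place of 3. In the replicate block CDP 3 has no partner and does not enter the difference. Leaving out CDP 3 gave the same 2.86 and did not pass (limma adjusted p = 0.673).

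Genes of monocytes and macrophages, the cells that depend on Csf1r, were set beside it. Of 8 with a probe set, 7 were tested, and Ccr2, Cx3cr1, F13a1 and Ctss were called higher in CDP and none lower, with differences of 2.00, 2.73, 1.86 and 2.11. Of all 8449 genes tested, 2.14% were called. The call for Ccr2 rests on its brightest probe set, and 2 further tested ones did not pass (2.03, adjusted p = 0.284, and 1.44, adjusted p = 0.0849). A second Cx3cr1 probe set stayed below detection on every array (at most 4.18) and was not tested. The other 3 tested genes did not pass, although all were above detection on every CDP array. The lysozyme gene Lyz2 read 8.45, 11.99 and 9.94 in CDP and 8.13 and 9.68 in CMP. The lipopolysaccharide co-receptor Cd14 read 5.06, 6.82 and 6.89 in CDP and 2.70 and 5.56 in CMP. The macrophage marker Adgre1 read 5.80, 5.82 and 5.41 in CDP, and 4.60 and 3.88, below detection, in CMP. Of the 8, Fcgr1 alone stayed below detection on all arrays. The summed signal of the list was 14.86 to 15.17 in CDP and 12.88 to 13.15 in CMP. Their part in the Csf1r difference was not tested.

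Flt3, the receptor for Flt3 ligand that both populations had been sorted to carry, read 10.89, 11.02 and 10.76 in CDP, and 9.88 and 10.06 in CMP. Every CDP array was above both CMP arrays, by 0.70 to 1.14, and the range within groups was 0.26 and 0.18. The means were 10.89 ± 0.13 (SD, n = 3) and 9.97 ± 0.13 (SD, n = 2), a difference of 0.92 ± 0.30 (SE, 1.89-fold) that did not pass (limma adjusted p = 0.221), with an unadjusted 95% interval of 0.18 to 1.66. It was 1.01 within the arrays low in 5′ actin signal and 0.83 within the others, and 22.3% of genes tested had a larger difference in either direction. The smallest difference called among all probe sets was 1.86. Of 10 dendritic cell markers, a list that itself holds Flt3, 4 were tested. Itgax (the gene of CD11c), Id2 and Clec10a were called higher in CDP, beside 2.14% called of all 8449 genes tested. The further probe sets of Id2 stayed below detection on every array (at most 2.56) and were not tested. CMP had been sorted without CD11c, so the Itgax difference is not independent of the sort. Flt3 made up 52.7% to 56% of the list's summed signal on the CDP arrays and 89.4% to 89.6% on the CMP arrays. Without Flt3 the other 9 genes summed to 10.58 to 10.68 (log2) in CDP and 6.81 to 6.96 in CMP. Of the 6 that were not tested, Zbtb46, a factor of conventional dendritic cells, read 4.24, 5.54 and 3.43 in CDP and 2.38 and 2.57 in CMP, above detection on CDP 2 alone. The other 5 (Batf3, Siglech, Xcr1, Cd209a and Ccr7) were below detection on all arrays. The part of these genes' cells in the Flt3 difference was not tested.

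Csf3r, the G-CSF receptor, overlapped between the groups. It read 5.74, 7.70 and 7.95 on CDP 1, 2 and 3, and 7.65 and 8.93 on CMP 1 and 2. In both groups the array low in 5′ actin signal was the lowest, 2.08 below the mean of the other 2 in CDP and 1.28 below the other in CMP, and 9.15% of tested probe sets were at least 1 lower on that array in both groups. The means were 7.13 ± 1.21 (SD, n = 3) and 8.29 ± 0.91 (SD, n = 2), a difference of -1.16 ± 0.77 (SE, 95% interval -3.03 to 0.71, limma adjusted p = 0.535). Of the 6 pairings of a CDP with a CMP array, CDP was lower in 4. The difference was -0.47 without CDP 1, -0.52 without CMP 2 and -1.80 without CMP 1. Within the arrays low in 5′ actin signal it was -1.90 and within the others -1.11, and with these arrays as a block it passed at -1.45 ± 0.30 (SE, limma adjusted p = 0.0385). That block fit called 1438 probe sets in all, with 2 residual degrees of freedom.

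Genes of the lineage that G-CSF drives were set beside it. Of 6 neutrophil precursor genes, 5 were tested, and Ms4a3, a gene of granulocyte and monocyte progenitors, was called lower in CDP (-2.68 ± 0.44 SE, limma adjusted p = 0.0491). The share called over all genes tested was 2.14%. The granule proteins Mpo, Prtn3 and Ctsg, at -0.58, -0.36 and -0.91, and the repressor Gfi1 (-3.20) did not pass. The summed signal of the list was 15.15 to 15.49 in CDP and 15.87 to 16.09 in CMP. All 7 mature neutrophil genes with a probe set, S100a8, S100a9, Ngp, Camp, Ltf, Mmp8 and Mmp9, were above detection on CDP 2, and none was on any other array. Their summed signal was 13.89 on CDP 2 and at most 5.94 elsewhere. Csf3r read 7.70 on CDP 2 and 7.95 on CDP 3. Without CDP 2 the Csf3r difference was -1.44. The part of neutrophils and their precursors in the Csf3r values was not tested.

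Epor, the erythropoietin receptor, read 2.41 on all 5 arrays, with a range of 0 within each group, close to the lowest value of the table (2.26). It was not detected and not tested, and this bounds neither a low level of the transcript nor any difference at that level. Of 11 erythroid genes with a probe set, 3 were tested and limma called none, with 1 (Tfrc) at an unadjusted p under 0.05. The globin gene Hba-a1 was at 2.26 on every array at the probe set that stood for it. Probe sets annotated to several genes were not used, so this does not show that globin transcripts were absent. The erythroid factors Gata1 and Klf1 stayed below detection, at up to 3.73 and 4.25, both on CMP 1. On CDP 2 alone the heme synthesis enzyme Alas2 (8.80), the anion exchanger Slc4a1 (9.89) and the membrane protein Epb42 (6.03) were above detection, and Epor read 2.41 there too. Other genes of the list were detected beyond CDP 2. The carbonic anhydrase Car2 read 5.21, 9.99 and 7.09 in CDP and 9.13 and 7.73 in CMP, and the related Car1 was above detection on CMP 1 alone (6.87). Ermap, an erythroid membrane protein, read 2.28, 6.99 and 5.56 in CDP, 7.03 on CMP 1 and a value close to the detection level on CMP 2. Tfrc, the transferrin receptor, which dividing cells of many kinds also use, read 12.58 to 13.57 in CDP and 11.97 and 12.21 in CMP and did not pass (1.13 ± 0.41 SE, limma adjusted p = 0.265). It made up 81.2% to 99.3% of the summed signal of the list on each array. Without Tfrc the other 10 genes summed to 6.46, 11.38 and 7.91 (log2) on CDP 1, 2 and 3, and to 9.76 and 8.24 on CMP 1 and 2, with overlapping groups.

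**Figure D2:**
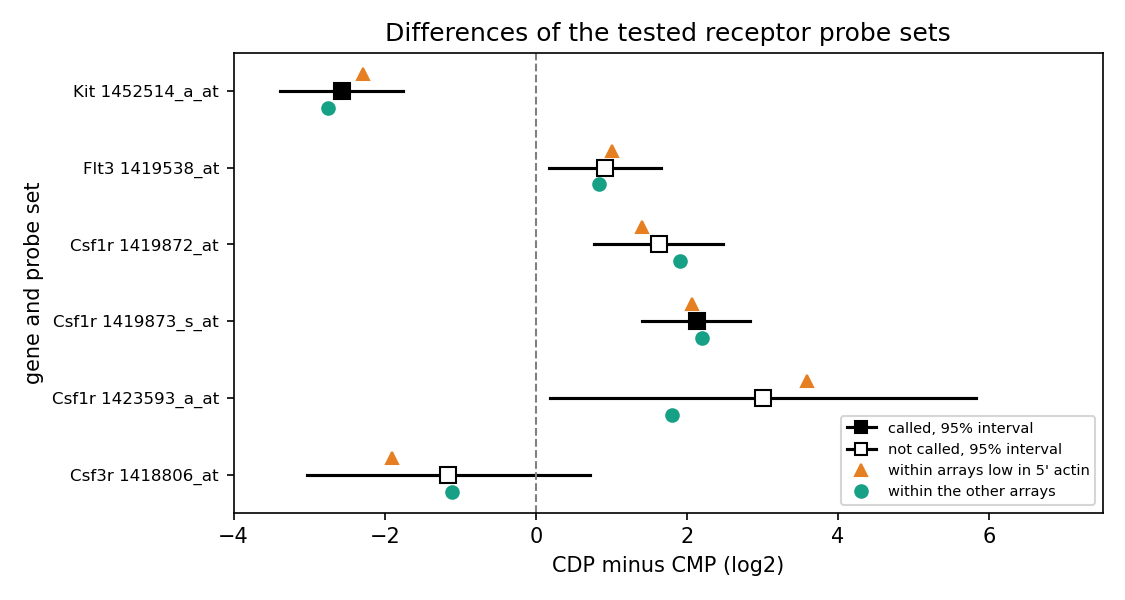
CDP minus CMP (log2, horizontal axis) for the 6 tested receptor probe sets, as squares with 95% intervals of the limma fit, filled where the adjusted p was under 0.05. Orange triangles give the difference within the arrays low in 5′ actin signal and green circles that within the other 3. Both lie on the same side of 0 as the square for every probe set, and they lie farthest apart for the Csf1r probe set 1423593_a_at (3.59 and 1.80, the former against CMP 1 below detection, and 2.85 with that array set to log2 5).

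Of the receptors' 6 ligand genes, 4 had a probe set named here, and none of these 4 was detected in either population. Flt3l and Epo, which encode Flt3 ligand and erythropoietin, had none and were not analysed here. Kitl, which encodes stem cell factor, read 2.27 to 2.32 and Csf1, which encodes M-CSF, 2.82 to 3.56, while Csf3 and Il34, which encode G-CSF and the second ligand of Csf1r, were at 2.26 on all arrays.

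Among the signal transducers below the receptors (adaptors, PI3 kinase subunits, Src-family and JAK kinases, STAT and Ras pathway proteins), none was called. Of 34 genes, 27 had a probe set and 25 were tested, 14 with a positive and 11 with a negative difference. At an unadjusted p under 0.05 limma had 4 higher and 1 lower, 20% of them, beside 17.1% of all 8449 genes tested. Their median was 0.01, beside 0.17 over all genes tested. Jak2, the kinase that Epor uses and one of those used by Csf3r, had the largest positive difference of the list and was picked after its value was seen. It read 10.41, 10.96 and 10.84 in CDP and 9.12 and 8.66 in CMP, a difference of 1.85 ± 0.35 (SE) that did not pass (limma adjusted p = 0.0688).

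Among 22 inhibitors of receptor signalling, all with a probe set, 14 were tested, 1 was called lower in CDP and none higher (4 higher and 1 lower at an unadjusted p under 0.05 in limma), with a median of 0.21, beside 2.14% of all genes called. The 1 called was Socs3, which binds the G-CSF receptor and related receptors and stops JAK signalling. It read 6.29, 5.73 and 6.21 in CDP, and 8.71 and 8.76 in CMP. The groups were 2.41 apart at their nearest, and the difference was -2.66 ± 0.33 (SE, limma adjusted p = 0.0295), or 6.31-fold lower in CDP. A second Socs3 probe set gave -2.55 ± 0.43 and did not pass (adjusted p = 0.0532), the other stayed below detection, and both tested ones carry the suffix _x_at of probe sets that may cross-hybridize. Sh2b3, an adaptor that restrains Kit and JAK signalling, was at 2.24 ± 0.41 without passing (adjusted p = 0.0616), and was picked after its value was seen.

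Transcription factors known to act on these receptor genes went both ways. Of 17 with a probe set, 16 were tested, Irf8 was called higher and Gata2 lower in CDP, and 14 did not pass, beside 2.14% called of all genes. The median was -0.63, or -0.80 relative to all genes. Gata2, a factor that acts on the Kit gene in stem and mast cells, read 5.55, 5.31 and 5.31 in CDP and 8.60 and 7.71 in CMP, a difference of -2.77 ± 0.38 (SE, limma adjusted p = 0.0349). A second Gata2 probe set gave -3.06 ± 0.57 and missed the threshold (adjusted p = 0.068). Irf8, the factor of the series' title, read 15.07 to 15.26 in CDP and 12.22 and 12.89 in CMP (2.61 ± 0.34 SE, adjusted p = 0.0318), and its second probe set gave 2.78 ± 0.53 (adjusted p = 0.0694). Spi1, which encodes PU.1 and acts on Csf1r and Csf3r, was at 0.41 ± 0.63 (adjusted p = 0.818) with overlapping groups. Cebpa, which acts on Csf3r, was at -1.86 ± 0.47 (adjusted p = 0.136). Runx1, which acts on Csf1r, was at -1.15 ± 0.40 (adjusted p = 0.247) on its brightest probe set. Its other tested probe sets gave -0.28, -0.32 and 0.67 ± 0.45 (adjusted p = 0.546 for the last). None of them passed, so no direction was shown for Runx1. Gata1, which acts on Epor, was not detected.

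Of 15 other receptors of the tyrosine kinase and cytokine receptor families, 14 had a probe set, 11 stayed below detection on every array and 3 were tested. Of these 3, 1 was called, beside 2.14% of all genes tested. Lifr, the receptor chain for leukemia inhibitory factor, read 7.54, 7.47 and 7.12 in CDP and 2.62 and 2.56 in CMP. It was at least 5.19-fold higher in CDP with values below detection set to log2 5 (limma adjusted p = 0.00785). Its 2 other probe sets were not tested, reaching at most 5.05. Its partner chain Il6st was at 2.31 ± 0.56 without passing (adjusted p = 0.124), and Pdgfrb, a kinase of the Kit family, was at -0.17 ± 0.47 (adjusted p = 0.91).

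**Figure D3:**
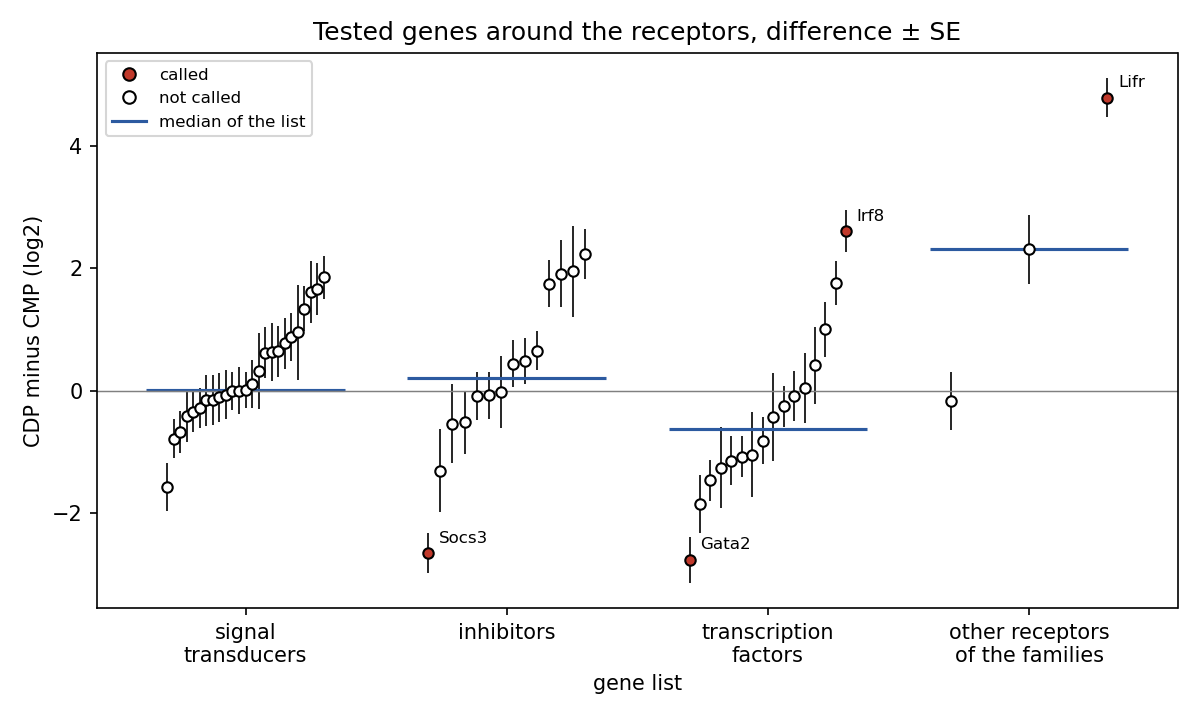
CDP minus CMP (log2, vertical axis, with SE of the limma fit) of each tested gene in 4 lists of genes around the receptors, ordered by value within a list, filled where called, with blue lines at list medians. Among these, Socs3 and Gata2 were called lower in CDP, and Irf8 and Lifr higher.

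The genes whose pattern over the 5 arrays was most like each receptor were found by the root mean square distance between log2 values centred on each gene's own mean, among 8448 other genes. This is a description over 5 arrays with 2 groups. Nearest to Kit were Socs3 (distance 0.05), Eya1 (0.24) and Armcx1 (0.30), where the median over all genes was 1.43. Nearest to Flt3 were Tle4 (0.07), Golga2 (0.08) and Slc36a1 (0.08), with a median of 0.59. Nearest to Csf1r were 6330407A03Rik (0.09), Ubl3 (0.09) and the cytokine Clcf1 (0.10), with a median of 0.89. Nearest to Csf3r were Cd27 (0.11), Macrod1 (0.15) and the probe set annotated to Snord104 (0.20), with a median of 1.14. Among the receptors themselves the closest pair was Flt3 and Csf1r (0.46) and the farthest Kit and Csf1r (2.08). By the way they were chosen, the genes nearest to Csf3r share its low value on CDP 1 and its high value on CMP 2.

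**Figure D4:**
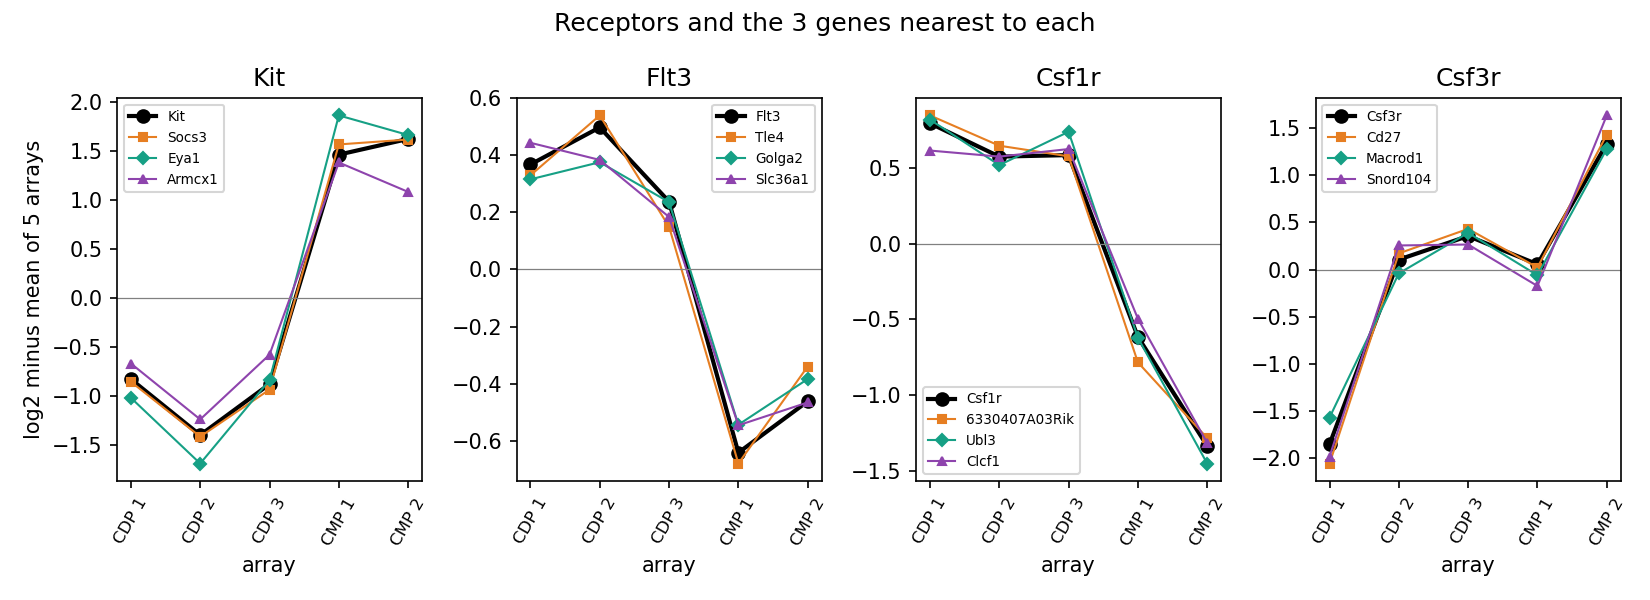
Log2 expression minus the mean of the 5 arrays (vertical axis) for the 4 receptors with a tested probe set, in black, and the 3 genes nearest to each, in colour, with lines that only join the values of a gene. Kit and its neighbours are high on both CMP arrays, Flt3 and Csf1r and theirs are high on the 3 CDP arrays, and Csf3r and its neighbours are lowest on CDP 1 and highest on CMP 2. The neighbours were chosen for this likeness.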

How the data were processed

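Per the labels' protocols, the cells were sorted in 2 passes and the RNA was amplified over 2 cycles. The submitters' processing notes name GCRMA, a method that removes background by probe sequence, equalizes quantiles between arrays and gives 1 value per probe set. The version is not given in the sources used here. The values the authors deposited are log2 expression, from 2.26 to 16.59, and were not normalized again. Precision is limited by the number of arrays. Groups and replicate numbers came from the sample titles. For CDP 3 that title begins with CM, unlike the BM of the other 4. Its remaining labels give bone marrow CDP, and it was kept in that group. The members, gene lists and tests were chosen with earlier results of these data known.

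Of 45037 probe sets without 64 controls, 34945 had 1 gene symbol in the platform annotation, 932 several and 9160 none. The 8 receptor probe sets kept their symbols by gene identifier in RefSeq. Probe sets with at least 2 arrays at log2 5 were tested (16552) with limma 3.58.1 under R 4.3.3 (lmFit, then eBayes; 2-sided; residual degrees of freedom 3, prior 3.14) and Benjamini-Hochberg adjustment over all of them. Alternatives were other scalings, filters, variance models, blocks and probe set choices, and leaving out arrays. The fit was tested on simulated data. An exact permutation test of 3 arrays against 2 cannot go below p = 0.2, so none was used. For lists, the brightest tested probe set stood for a gene. Summed signals are the log2 of summed unlogged values. Named were all receptor probe sets, called genes of the lists, all ligands, 6 factors (Spi1, Runx1, Cebpa, Gata1, Gata2, Irf8) and the 3 nearest genes of each receptor, with markers of other cell types as checks. Markers of B cells and T cells with a probe set were below detection. The NK cell list had 1 tested gene, Nkg7, which was called lower in CDP, by at least 11.1-fold with values below detection set to log2 5 (1 of 3 CDP arrays). Ncr1 and Gzma, the others of that list with a probe set, were at 2.26 on all 5 arrays. Of 2 tested megakaryocyte genes Pf4 was called lower, by at least 1.68-fold, all CDP arrays being below detection.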

Additional observations from a re-analysis of the deposited data

How the results depend on the processing

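None of the tested receptor probe sets changed direction under any alternative, and the Flt3 difference stayed between 0.79 and 1.01 without being called in any of 19. The Kit difference stayed between -2.75 and -2.40. Its call ended with no filter on low values (-2.57, adjusted p = 0.124), without both arrays low in 5′ actin signal (-2.75, adjusted p = 0.0786), and without any single array (-2.68 to -2.40), and it held in the other 11 of 18. Csf1r on its brightest probe set passed with the 5′ actin block (1.70) and as the mean of its probe sets (2.25), and ranged from 1.27 to 1.98 when single arrays were left out. Csf3r passed with the 5′ actin block alone (-1.45) and ranged from -1.80 to -0.47 when single arrays were left out. The number of probe sets called, 287, became 55 with no filter and 154 with values below 5 set to 5. It became 608 with the replicate number as a block and 1438 with the 5′ actin block, at 1 and 2 residual degrees of freedom. It was 0 without both arrays low in 5′ actin signal, where limma gave 4768 at an unadjusted p under 0.05, and 0 to 44 without single arrays, with 1508 to 3208 at an unadjusted p under 0.05. Such fits have fewer residual degrees of freedom, and a lone CMP array is assumed to vary like CDP. The cause of the other changes was not tested. With the replicate number as a block (CDP 3 has no partner) Kit was at -2.65 (adjusted p = 0.0235), Csf1r at 1.66 (0.0616), Flt3 at 0.98 (0.165) and Csf3r at -1.57 (0.0776), so the block changed no call of these 4. Deviations of same-numbered arrays from their group means correlated at 0.61 and 0.58. The 2 CMP arrays deviate from their mean in exactly opposite ways, so these are not 2 separate observations. With 2 pairs and no label on the numbers, the labels give such arrays only a number in common. Over the tested probe sets, each CMP array correlated more with its same-numbered CDP array (Pearson 0.924 and 0.911) than with the other CMP array (0.895). Each CDP array correlated most with another CDP array (CDP 1 with CDP 3 at 0.925, CDP 2 with CDP 3 at 0.974). The cause was not tested. CDP 1 and CMP 1 are also the arrays low in 5′ actin signal. Both Kit probe sets carry the suffix _a_at, so leaving out such probe sets gave no value for Kit.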
